A study of Mus musculus with 6 samples.

Results

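Mismatch repair genes and the catalytic subunits of the proofreading DNA polymerases were examined in cells sorted from the mouse uterus by the activity of the Axin2 promoter. The set holds 7 of the 26586 genes in the deposited count table, taken by symbol for their function: Msh3, Msh6, Pms1, Pms2, Exo1, Pole and Pold1. All 7 had enough counts to be tested. Mice carried the Axin2rtTA and tetOH2BJGFP transgenes, so that a fluorescent histone marks cells in which the Axin2 promoter is active while doxycycline is given. Their ovaries were removed at 4 weeks of age. A rest of 2 weeks and doxycycline followed, and the tissue was taken 4 days after that, at an age given as 6 weeks. From these, sorting of endometrial epithelial cells gave Axin2+ cells, which carry the fluorescent histone, and Axin2- cells, which do not. Each fraction has 3 libraries, with numbers that the labels give as the mouse. All animals carried both transgenes and lacked ovaries, so the fractions differ by the sort alone, as far as the labels say. Pooling of cells is mentioned in the labels as well. Were libraries drawn from pooled mice, every p-value here would reflect only how such libraries vary, which may be technical.

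Mismatch repair removes bases that were paired wrongly during DNA replication. The Msh6 and Msh3 proteins each join a common partner to form the sensors that find the error: the Msh6 complex binds base mismatches and short loops, and the Msh3 complex binds longer loops of unpaired bases. Pms2 carries the endonuclease that nicks the newly made strand, Pms1 belongs to a related complex with a lesser part in repair, and Exo1 digests the nicked strand. Pole and Pold1 are the catalytic subunits of polymerases epsilon and delta, which copy the leading and the lagging strand and correct their own errors with a built-in exonuclease. In human endometrial cancer, loss of mismatch repair and mutations in the exonuclease part of the epsilon polymerase each define a known molecular class with very many mutations.

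Read counts summed to between 49714402 and 59597315 per library. Axin2 itself stood lower in the fluorescent fraction (log2 fold change -0.61 ± 0.21 SE, edgeR adjusted p = 0.0710), and passed as lower in DESeq2 (-0.62, adjusted p = 0.0338) and without the Axin2+ library of mouse 3 (-0.82, 0.0290), so its transcript does not bear out the labels, and directions below are those of the libraries as labelled. Markers of cell types differed between fractions too, and the Axin2- libraries had little of the epithelial ones. Summed over 8 epithelial markers, the level was 170.1 to 266 CPM (CPM, the count scaled by library size and TMM factor) across the Axin2- libraries and 2126 to 3126 CPM across the Axin2+ libraries. Summed smooth muscle markers went the other way, at 2095 to 5645 against 169 to 289 CPM, and so did stromal fibroblast markers, at 9040 to 19558 against 2895 to 3936 CPM. Macrophage markers stood at 39.1 to 280 CPM against 602 to 3393 CPM, and T and NK cell markers at 12.5 to 21.8 against 0.245 to 1.16 CPM. Endothelial markers ranged from 168 to 212 CPM against 193 to 270.2 CPM, and mesothelial markers from 165 to 217 CPM against 157 to 440.3 CPM. Although these sums overlapped, 4 of 6 endothelial markers rose, and of 4 mesothelial markers 3 rose and 1 fell. No marker was at 0 in all libraries of a fraction. In such bulk fractions, fewer cells of a type and less RNA per cell cannot be told apart, and the part that cell makeup has in the results below was not tested.

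Of the 7 genes, 3 were higher in the Axin2+ libraries and 0 were lower. Msh6, Exo1 and Pole passed the edgeR quasi-likelihood test at an adjusted p of 0.05 over all 16896 genes tested, and Msh3, Pold1, Pms1 and Pms2 did not. Higher calls made up 14.5 percent of all genes tested and lower calls 12.8 percent, 27.3 percent together, so 3 of 7 compares with a high background. The libraries of the fractions did not overlap for 4 of the 7 genes, all higher in Axin2+, against 23.9 percent of all genes tested in that direction and 47.2 percent in either. The median log2 fold change of the 7 genes was 0.32, beside a median of -0.0077 over all genes tested. With the mouse as a block, 2 of the 7 passed, Msh6 and Exo1.

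**Figure D1:**
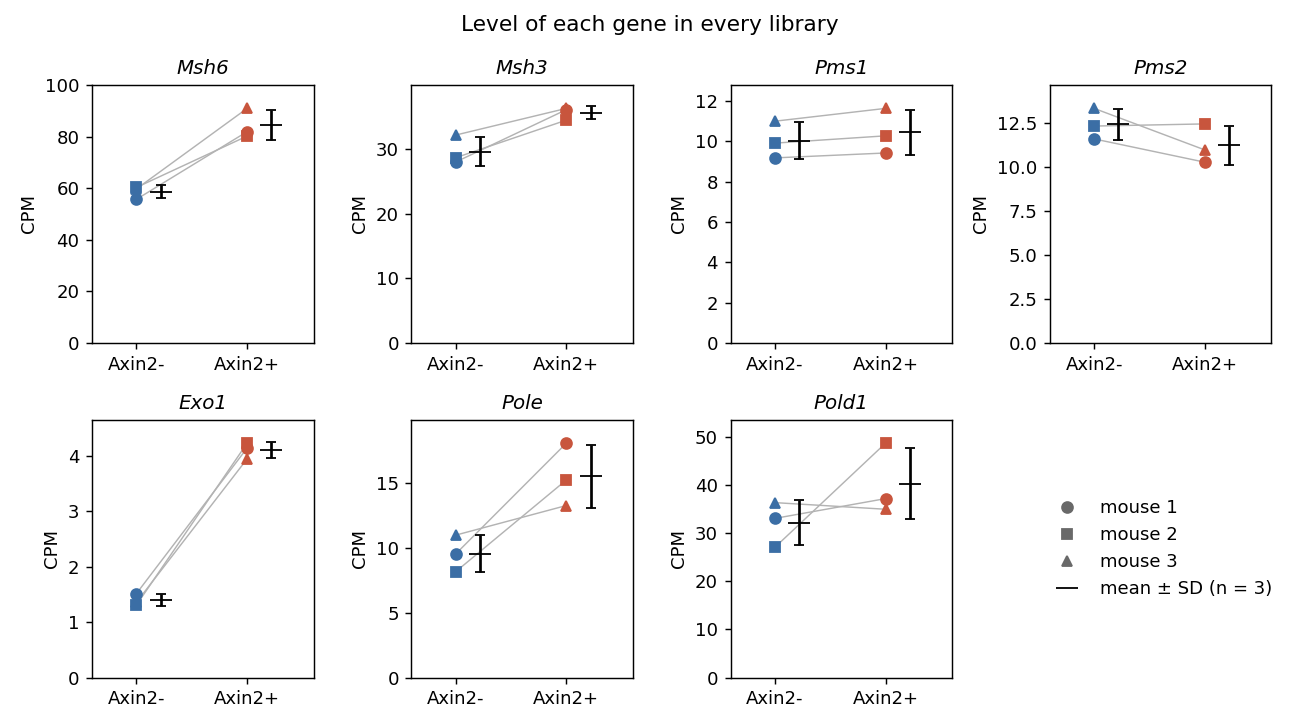
Level in CPM (vertical axes, from 0) of the 7 genes in each library of the Axin2- and Axin2+ fractions, with grey lines joining libraries of the same mouse and black bars for the mean ± SD of 3 libraries. Exo1 sits between 1.31 and 1.52 CPM in the Axin2- libraries and between 3.95 and 4.23 CPM in the Axin2+ libraries, whereas the fractions overlap for Pms1, Pms2 and Pold1.

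The sensor gene Msh6 (ENSMUSG00000005370.4, chromosome 17, 87975062 to 87990892, plus strand, build mm10) was the most abundant of the set per length. It stood at 55.7, 60.3 and 59.7 CPM in the Axin2- libraries of mice 1, 2 and 3 and at 81.9, 80.2 and 90.97 CPM in the Axin2+ libraries. The lowest Axin2+ library lay well above the highest Axin2- library. The mean of Msh6 rose from 58.6 ± 2.51 CPM to 84.4 ± 5.77 CPM (SD over libraries, n = 3 per fraction), a fold of 1.44 with a 95% interval of 1.21 to 1.71. Its log2 fold change of 0.53 ± 0.11 (SE) had an edgeR adjusted p of 0.0115, and the change within mice 1, 2 and 3 was 0.56, 0.41 and 0.61 on the log2 scale. The call held in all 14 other settings, with adjusted p from 0.00155 to 0.0404.

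Msh3, the sensor gene for longer loops (ENSMUSG00000014850.15, chromosome 13, 92211872 to 92355003, minus strand), moved less. It stood at 27.98, 28.6 and 32.1 CPM in the Axin2- libraries and at 36.1, 34.5 and 36.3 CPM in the Axin2+ libraries. The fractions did not overlap, which by itself gives each of the 3 mice more Msh3 in its Axin2+ library. Even so, edgeR gave an adjusted p of 0.151 for its log2 fold change of 0.27 ± 0.12 (SE), and the 95% interval of the fold ran from 0.985 to 1.47. It passed in 1 of 14 other settings, with library size alone as the scaling (0.44, adjusted p = 0.0360), a scaling under which the median gene also moved up by 0.16.

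Upstream sequence is shown for Msh6, which passed in every setting. Exo1 did so too, but no promoter sequence was available for Exo1 or Pole, so neither was searched. RefSeq promoter sequences (GRCm38.p6, 250 bases before to 50 after the start) are described for Msh6, Pms1, Pms2 and Pold1. The 250 bases before the Msh6 start, at chr17:87974800-87975049 on the plus strand, are printed with the CCAAT box, read on the opposite strand, in capitals.
Msh6 upstream: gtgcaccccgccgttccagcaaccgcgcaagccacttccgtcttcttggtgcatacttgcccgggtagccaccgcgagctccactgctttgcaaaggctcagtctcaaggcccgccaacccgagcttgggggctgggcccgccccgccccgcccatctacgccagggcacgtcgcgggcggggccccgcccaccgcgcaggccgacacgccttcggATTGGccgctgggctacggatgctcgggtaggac
The promoters were also searched on both strands for 3 words of the kind bound by E2F factors, which drive genes of the G1 to S transition: TTCCCGCC, TTTGGCGC and TTTCGCGC. Among these 4 promoters, at least 1 of the words occurred in Msh6 and Pold1 and none in Pms1 and Pms2. Over 32817 promoters of the same length and of any G and C content, 2.96 percent held a word. No share was taken for promoters matched in G and C, so these figures do not show an excess. The 30 bases around each match are given with the matched letters in capitals.
Msh6 from 17 to 24: tcctcccgactTTCCCGCCagcggcggccg
Pold1 from 39 to 46: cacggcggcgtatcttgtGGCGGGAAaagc
Positions count from the start as 1, with no position 0. The Msh6 window lies at chr17:87975055-87975084 (plus strand) and the Pold1 window at chr7:44548766-44548795 (minus strand). The CCAAT box, found in 37.4 percent of all promoters, occurred 1 time in Msh6, 2 times in Pms1, 3 times in Pms2 and 0 times in Pold1. Promoters of the 4 genes were 58.3 to 71.7 percent G and C, against a median of 52.7 percent. These are matches of letters, and binding was not measured.

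Neither Pms2 nor Pms1, the MutL genes of the set, passed the test. Pms2, which carries the nicking endonuclease (ENSMUSG00000079109.11, chromosome 5, 143909964 to 143933968, plus strand), stood at 11.6, 12.3 and 13.3 CPM in the Axin2- libraries and at 10.3, 12.5 and 10.98 CPM in the Axin2+ libraries. The ranges overlapped, and mouse 2 differed in sign from the other mice. The log2 fold change was -0.15 ± 0.17 (SE, edgeR adjusted p = 0.574), with a 95% interval of the fold from 0.682 to 1.20. Pms1 (ENSMUSG00000026098.13, chromosome 1, 53189187 to 53297018, minus strand) stood at 9.18, 9.91 and 10.997 CPM against 9.42, 10.3 and 11.6 CPM. In both fractions mouse 1 was lowest and mouse 3 highest. Its log2 fold change was 0.058 ± 0.19 (SE, adjusted p = 0.847), with an interval of the fold from 0.767 to 1.41. These intervals leave room for a modest change in either gene, but not for one as large as that of Exo1, whose interval began at 1.79. In the annotation 5873 exonic bases of Pms2 lie inside the antisense gene Gm17135, and 3991 inside Gm42421 on the same strand, so the split of reads between Pms2 and these genes, which have no row in the count table, is uncertain.

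Exo1, the exonuclease that digests the nicked strand (ENSMUSG00000039748.11, chromosome 1, 175880581 to 175913489, plus strand), had the largest fold of the 7. It was also the scarcest, with 78, 75 and 66 reads in the Axin2- libraries and 240, 224 and 212 in the Axin2+ libraries. These counts came to 1.52, 1.31 and 1.36 CPM and to 4.14, 4.23 and 3.95 CPM. The libraries within a fraction lay close together, and the gap between fractions was far wider than either range. Exo1 rose from 1.40 ± 0.108 to 4.11 ± 0.145 CPM (SD, n = 3 each), a fold of 2.94 with a 95% interval of 1.79 to 4.82. The log2 fold change was 1.56 ± 0.30 (SE, edgeR adjusted p = 0.00996), and within mice it was 1.45, 1.69 and 1.54. The call held in all 14 other settings, with adjusted p from 1.29e-06 to 0.0478.

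**Figure D2:**
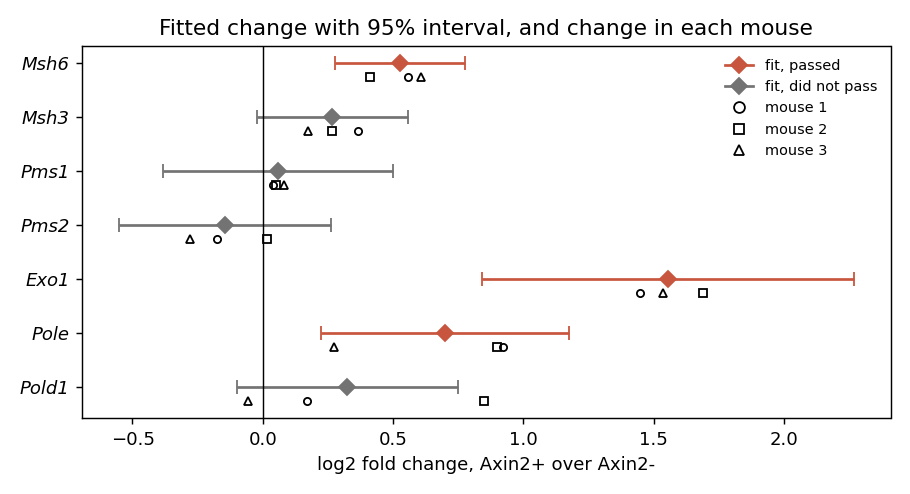
Log2 fold change of Axin2+ over Axin2- (horizontal axis) for the 7 genes, as fitted by edgeR with its 95% interval (diamonds, red where the gene passed) and within each mouse (open symbols). The interval of Exo1, from 0.84 to 2.27, lies apart from those of Pms1 and Pms2, which include 0.

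Of the proofreading polymerases, Pole (ENSMUSG00000007080.14, chromosome 5, 110286306 to 110337474, plus strand) passed narrowly. It stood at 9.51, 8.14 and 10.96 CPM in the Axin2- libraries and at 18.03, 15.2 and 13.2 CPM in the Axin2+ libraries. The fractions did not overlap, but mouse 3 changed by 0.27 on the log2 scale where mice 1 and 2 changed by 0.92 and 0.90. Pole rose from 9.54 ± 1.41 to 15.5 ± 2.41 CPM, a fold of 1.62 with a 95% interval of 1.17 to 2.26 (log2 fold change 0.70 ± 0.20 SE, edgeR adjusted p = 0.0406). With the mouse as a block it did not pass (adjusted p = 0.0753). Nor did it pass without the Axin2- library of mouse 1, 2 or 3 (0.0890, 0.0923 and 0.0524) or the Axin2+ library of mouse 1 or 2 (0.114 each), with log2 fold changes from 0.58 to 0.83 in these 5 fits.

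Pold1 (ENSMUSG00000038644.14, chromosome 7, 44532746 to 44548849, minus strand) stood at 33.1, 27.1 and 36.3 CPM in the Axin2- libraries and at 37.2, 48.7 and 34.95 CPM in the Axin2+ libraries. The ranges overlapped, and the high value of the Axin2+ library of mouse 2 gave that mouse a change of 0.85, against 0.17 and -0.056 in mice 1 and 3. With a log2 fold change of 0.32 ± 0.18 (SE), Pold1 missed the threshold (edgeR adjusted p = 0.223), and without that library the change was 0.17. The interval of the fold, 0.933 to 1.68, covers the fold of Pole.

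Of the 6 accessory subunits of these enzymes, 1 passed as higher and 0 as lower. That share of 16.7 percent is close to the 14.5 percent of all genes called higher. Pold3, a subunit of polymerase delta, rose from 32.2 ± 2.28 to 42.5 ± 0.377 CPM (edgeR adjusted p = 0.0415). That call was lost with the mouse as a block, with upper quartile factors, with no filter on low counts, and without each library but the Axin2- library of mouse 3, each of which left 0 of 6. Pold2 stood at 16.5 ± 5.83 and 16.98 ± 1.97 CPM, Pold4 at 12.7 ± 2.00 and 14.5 ± 4.04 CPM, and Pole2 at 2.76 ± 0.364 and 2.96 ± 0.637 CPM. Pole3 stood at 26.6 ± 7.13 and 31.1 ± 2.90 CPM, and Pole4 at 19.02 ± 1.32 and 16.4 ± 0.373 CPM. Whether Pole and its accessory subunits differ in their change was not tested.

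Levels of different genes were compared per kilobase of the longest annotated transcript. In the Axin2- libraries the order was Msh6 (13.8 ± 0.591 CPM per kb), Pold1 (9.19 ± 1.35), Msh3 (6.96 ± 0.526), Pms1 (3.28 ± 0.300), Pms2 (2.02 ± 0.142), Pole (1.33 ± 0.196) and Exo1 (0.179 ± 0.0138). In the Axin2+ libraries Msh6 stood at 19.9 ± 1.36 CPM per kb, Pold1 at 11.5 ± 2.11, Msh3 at 8.37 ± 0.234, Pms1 at 3.42 ± 0.365, Pole at 2.16 ± 0.337, Pms2 at 1.83 ± 0.181 and Exo1 at 0.527 ± 0.0186. Neighbours in these orders had ranges that did not overlap, except Pole and Pms2 in the Axin2+ libraries, at 1.85 to 2.52 and 1.67 to 2.02 CPM per kb. With the union of all annotated exons as the length, Msh6, Pold1 and Msh3 were again the top 3 and Exo1 the lowest. Msh3 then stood at 2.63 and 3.16 CPM per kb, and Pms1, Pms2 and Pole lay within 1.38 to 1.39 CPM per kb in the Axin2+ libraries. In the Axin2- libraries Pms2 then stood at 1.53 ± 0.107 and Pms1 at 1.33 ± 0.121 CPM per kb, so the order of these genes depends on the length used.

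Ratios of counts within a library need no scaling between libraries. Over 3 Axin2- and 3 Axin2+ libraries, Msh6 had 1.98 reads per read of Msh3 in the Axin2- fraction and 2.37 in the Axin2+ fraction (geometric means). The log2 ratios were 0.99, 1.07 and 0.89 against 1.18, 1.22 and 1.33, with no overlap. Msh6 to Pms2 went from 4.72 to 7.51 reads per read, Pole to Pold1 from 0.297 to 0.386, and Pms2 to Pms1 from 1.24 to 1.08. In all 4 ratios the fractions did not overlap, although for Pms2 to Pms1 the nearest libraries of the fractions were both at a log2 ratio of 0.28. The ratios share genes, and no share without overlap was taken over other pairs of genes. Among single genes, 47.2 percent of those tested did not overlap in CPM, so the count shows no excess. Each gave an exact two-sided permutation p of 0.1 (0.1 adjusted over 4 ratios), the smallest that 3 against 3 libraries allow. With 3 libraries a fraction, such a ratio cannot pass 0.05.

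The 7 genes were also set against Mcm2 to Mcm7, the subunits of the replicative helicase, by the log2 ratio to their geometric mean in each library. This yardstick was not level between the fractions. Mcm2, Mcm3 and Mcm6 passed as higher in Axin2+ (edgeR log2 fold changes 1.12, 0.93 and 0.93), and Mcm4, Mcm5 and Mcm7 did not pass (0.064, 0.48 and 0.24). Each ratio therefore also carries the change of the helicase genes. Exo1 was higher relative to the helicase in all Axin2+ libraries, with a fold of 1.90 and log2 ratios of -4.39, -4.54 and -4.55 against -3.48, -3.60 and -3.61. Pms2 had a fold of 0.587, Pms1 of 0.676 and Msh3 of 0.783, each with no overlap between fractions. For Msh6, Pole and Pold1 the fractions overlapped, with folds of 0.935, 1.05 and 0.811. The exact permutation p was 0.1 for the 4 genes without overlap (0.175 adjusted over 7), and 0.5, 0.7 and 0.2 for Msh6, Pole and Pold1. How many of all genes lack overlap in their ratio to the helicase was not counted, so 4 of 7 shows no excess. Pole turned from a log2 difference of 0.076 to -0.013 without the Axin2- library of mouse 2 and to -0.076 without the Axin2+ library of mouse 1.

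**Figure D3:**
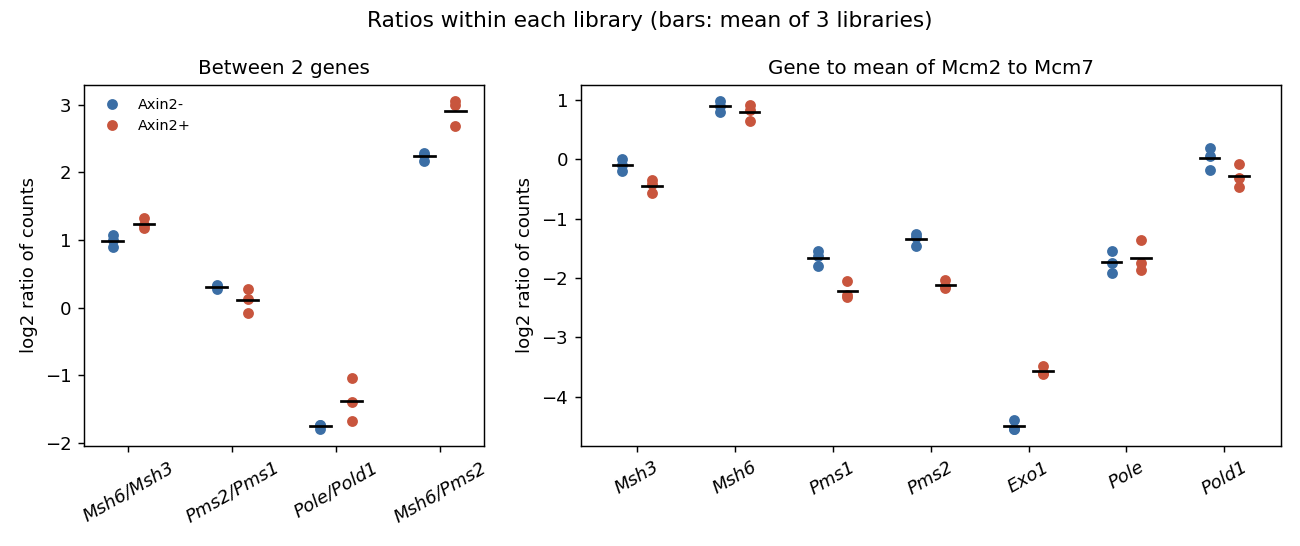
Log2 ratios of counts within each library (vertical axes), between pairs of the genes on the left and of each gene to the geometric mean of Mcm2 to Mcm7 on the right. Points are libraries, blue for Axin2- and red for Axin2+, and bars are means of 3. On the right, Exo1 lies higher in Axin2+, Pms1, Pms2 and Msh3 lie lower, and Msh6 overlaps.

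Genes that act with or beside the 7 were taken from lists of known function. The list of 12 downstream mismatch repair factors included the clamp, clamp loader, single-strand binding proteins and ligase, and also the MutL gene Mlh3. Of the 12, 2 rose and 0 fell. That share of 16.7 percent is close to the 14.5 percent of all genes called higher. Rpa1, the large subunit of the single-strand binding complex, rose from 38.5 ± 4.63 to 60.4 ± 2.09 CPM (edgeR adjusted p = 0.0106), and Lig1, the ligase that seals the new strand, rose from 44.1 ± 7.53 to 68.4 ± 4.45 CPM (0.0199). Without the Axin2- library of mouse 1 or the Axin2+ library of mouse 2, 1 of the 12 passed. Pcna, the sliding clamp, had means of 46.1 ± 6.26 and 40.5 ± 4.50 CPM (not passed, 0.404), and the MutL gene Mlh3 had 28.5 ± 4.33 and 28.2 ± 3.98 CPM (0.946). Pcna and Mlh3 were chosen after their values were seen. The list had a median of 0.15.

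The meiotic MutS homologues were scarce. Msh4 had 82, 73 and 66 reads in the Axin2- libraries and 1, 32 and 5 in the Axin2+ libraries. All Axin2+ libraries were below all Axin2- libraries, with a wide spread among them. For Msh4 the log2 fold change was -2.56 ± 1.06 (SE), short of the threshold (edgeR adjusted p = 0.115), while the list gave 1 lower gene in DESeq2 and 1 without the Axin2+ library of mouse 2. Msh5 stood at 2.10 ± 1.25 and 1.35 ± 0.328 CPM (adjusted p = 0.433).

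Of 22 replication licensing and S phase genes, 6 (27.3 percent) rose and 0 fell, with a median log2 fold change of 0.60. Of all genes tested, 14.5 percent were called higher. Mcm2 rose by a log2 fold change of 1.12, Mcm3 by 0.93, Mcm6 by 0.93 and Uhrf1, which maintains DNA methylation at replication, by 1.71 (edgeR adjusted p = 0.00104, 0.00239, 0.00295 and 0.00514). Of 15 G2 and M phase genes, 5 (33.3 percent) rose and 0 fell, with a median of 1.15. Among them were Top2a, the topoisomerase of mitotic chromosomes (2.18, adjusted p = 0.0127), Ccna2, cyclin A (1.58, 0.0237), Bub1b, of the spindle checkpoint (1.06, 0.0249), and Aurkb, a mitotic kinase (2.14, 0.0260). That count was 8 with the mouse as a block, and fell to 2 and 1 without the Axin2+ library of mouse 1 or 2 and to 3 without the Axin2- library of mouse 3.

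The proliferation marker Mki67, chosen after its values were seen, varied widely among the Axin2- libraries. It stood at 54.8, 8.79 and 46.3 CPM in the Axin2- libraries of mice 1, 2 and 3, and at 136, 115 and 132 CPM in the Axin2+ libraries. Mki67 did not pass the threshold (edgeR adjusted p = 0.0568). The Axin2- library of mouse 2 was far below the others of its fraction. That library was also the lowest of its fraction for Pold1 (27.1 CPM), Pole (8.14 CPM) and, by a small margin, Exo1 (1.31 CPM against 1.36 and 1.52). It was the highest for Msh6 and lay between the others for Msh3, Pms1 and Pms2. The macrophage gene Csf1r, also chosen after its values were seen, stood at 596, 251 and 94.2 CPM in the Axin2+ libraries. Pole had the same order there, at 18.03, 15.2 and 13.2 CPM, Exo1 stayed between 3.95 and 4.23 CPM, and Msh6 was highest in mouse 3. Csf1r is 1 of 7 macrophage markers, and the others were not set against these genes. Many genes can share an order over 3 libraries, so nothing is drawn from it here. The part of proliferation or of macrophage content in the results was not tested.

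Of 18 other DNA polymerase genes, 4 fell and 1 rose, with a median of -0.19, beside 12.8 percent lower and 14.5 percent higher of all genes. The mitochondrial polymerase genes Polg2 and Polg fell by 1.26 and 0.49 on the log2 scale (edgeR adjusted p = 0.00905 and 0.0119). Rev1 and Poln, which copy past damaged bases, fell by 0.55 and 2.02 (0.0198 and 0.0453, Poln being named to complete the count), and Polb, of base excision repair, rose by 0.59 (0.0446). With library size alone as the scaling 1 fell and 2 rose. Without 1 library, between 1 and 3 fell, and none rose except 1 without the Axin2+ library of mouse 3. With the mouse as a block 3 fell and 0 rose.

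Of 14 base excision repair genes, 2 rose: the ligase Lig3, from 42.6, 47.05 and 48.2 CPM in mice 1, 2 and 3 to 86.3, 81.7 and 90.6 CPM (edgeR adjusted p = 0.00154), and the flap endonuclease Fen1, from 12.4 ± 2.42 to 19.7 ± 0.492 CPM (0.0353). That share of 14.3 percent is near the 14.5 percent of all genes called higher. With the mouse as a block 1 of the 14 passed, as without the Axin2- library of mouse 1 or any Axin2+ library. Fen1 was also the 1 of 6 flap nucleases and RNase H2 subunits that rose, a count that was 0 with the block and without each library but the Axin2- library of mouse 2. The medians of these lists were 0.40 and -0.088.

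**Figure D4:**
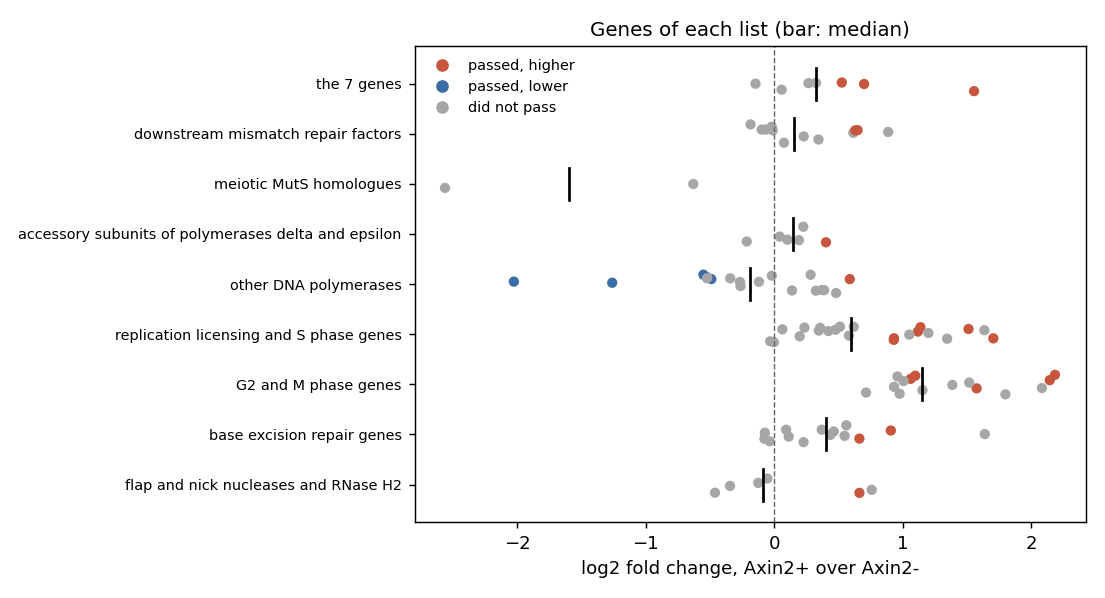
Log2 fold change of Axin2+ over Axin2- (horizontal axis) for each gene of the 7-gene set and of the 8 lists, as points, red or blue where a gene passed as higher or lower and grey where it did not, with a bar at each median. The median of the 7 genes, 0.32, lies between those of the downstream repair factors (0.15) and of the S phase genes (0.60).

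Genes with the most similar profile were sought among tested genes with a mean of at least 5 CPM, by Pearson's r of log2(CPM + 0.5) over the 6 libraries. The search covered 11083 genes for Exo1 and 11082 for each other member. The closest of so many genes can reach a high r over 6 libraries. All r values rest on the same 6 libraries and are given without a p. Each gene named for Exo1, Pole, Msh6 and Msh3 was itself higher in Axin2+ without overlap, so that the difference between fractions weighs in these r values. For Exo1 they were Faah and Ncald (r = 0.9996 and 0.9994), for Pole Tmem173 and F10 (0.999 and 0.998), and for Msh6 Ccl28 and Cog4 (0.997 each). F10 and Cog4 did not pass the threshold (edgeR adjusted p = 0.0516 and 0.0557). Msh3 was followed most closely by Prelid2 and Tada2a (0.992 and 0.990). For the other members r was lower, with Lace1 and Yars2 for Pms1 (0.973 and 0.969), Smg1 and Zfp82 for Pms2 (0.974 and 0.973), and Tmem159 and Ube2ql1 for Pold1 (0.977 and 0.972).

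The authors' deposited table gives log2 fold changes of 1.55 for Exo1, 0.52 for Msh6, 0.69 for Pole, 0.26 for Msh3, 0.32 for Pold1, -0.15 for Pms2 and 0.050 for Pms1. The false discovery rates in the authors' deposited table were 0.00894 for Exo1, 0.0116 for Msh6 and 0.0406 for Pole, and at least 0.149 for the other 4 genes.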

How the data were processed

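RNA depleted of ribosomal RNA was sequenced from 6 libraries, 3 per fraction. The files deposited by the authors hold 1 whole-number read count per gene and library. STAR 2.5.3a, featureCounts 1.5.3, edgeR 3.22.5 and build mm10 are named in the submitters' processing notes. For the gene annotation and the strand setting, the sources used here give nothing. A second table deposited by the authors gives, for each gene, a log2 fold change, a mean log2 level, an F score, a p-value and a false discovery rate.

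Here R 4.3.3 and edgeR 4.0.16 were used, with filterByExpr, TMM factors and a robust quasi-likelihood fit of Axin2+ against Axin2-, and Benjamini-Hochberg adjustment over 16896 genes. The SE of a log2 fold change is its size over the square root of F, and intervals are 95%. The scripts were tested on simulated counts. Alternatives were DESeq2 1.42.0, 3 other scalings, 2 other filters, a fit without ribosomal RNA genes (18.2 and 15.96 percent of counts in Axin2- and Axin2+), the mouse as a block, and leaving out each library. That numbers mark the mouse is taken from the labels. As a check of this pairing, deviations of same-numbered libraries from their group means had r of 0.31, 0.031 and -0.11 across genes for mice 1, 2 and 3, and the highest r between differently numbered libraries was also 0.31 (Axin2- of mouse 2 with Axin2+ of mouse 3), so the pairing rests on the labels alone. Ratios used a pseudocount of 0.5. Places and lengths are from GENCODE M21 on GRCm38, the assembly behind mm10, and promoters from RefSeq (GRCm38.p6). Every list symbol was found, 2 of them under an older symbol (Ccdc111, Emr1). Named genes are the 7, Axin2, up to 4 of lowest p among those that passed in a list, every accessory subunit and meiotic homologue, and the 2 closest profiles per gene, with predicted genes left out. Outside this rule, Poln, Pcna, Mlh3, Mki67 and Csf1r were chosen after their values were seen. The 7 genes and the lists were chosen with earlier results of these data known. The promoter of Msh3 is not reported here.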

Additional observations from a re-analysis of the deposited data

How the results depend on the processing

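The calls of Msh6 and Exo1 held in all 14 alternatives. With the mouse as a replicate block, Pole was lost (log2 fold change 0.70), 8 G2 and M phase genes rose, 1 base excision repair gene rose, and 0 accessory subunits, 0 other polymerases and 0 flap nucleases rose. The block ended no other call among the 7 genes, and moved no other count of the lists by over 1.5 times. With upper quartile factors, and with no filter on low counts, 0 accessory subunits and 0 other polymerases rose. With library size alone, higher calls made up 67.4 percent of the genes called in either direction, against 53.0 percent with TMM. Msh3 then passed at 0.44, Pms2 turned to 0.027 and the flap nuclease median to 0.086, 9 G2 and M phase genes and 2 other polymerases rose, and 1 other polymerase fell. In DESeq2, Axin2 passed as lower (-0.62), 10 G2 and M phase genes rose and 1 meiotic homologue fell. Leaving out 1 library gave 1491 to 2304 higher and 1053 to 1911 lower genes in all. The log2 fold change then ranged from -0.82 (without the Axin2+ library of mouse 3, where it passed) to -0.41 for Axin2, -0.024 to 0.15 for Pms1 and 0.58 to 0.83 for Pole, the log2 difference of Pole to Mcm2 to Mcm7 from -0.076 to 0.18, and the flap nuclease median from -0.16 to 0.013. Counts that rose were 1 to 2 downstream factors, 0 to 1 accessory subunits, 0 to 1 other polymerases, 1 to 6 G2 and M phase genes, 1 to 2 base excision repair genes and 0 to 1 flap nucleases, and counts that fell were 0 to 1 meiotic homologues and 1 to 3 other polymerases. The causes were not tested. Msh4 rests on few and uneven reads, with 1, 32 and 5 in the Axin2+ libraries.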
